A study of Mus musculus with 11 samples.

Results

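The 10 genes of the AP-1 and immediate early response, Fos, Fosb, Jun, Junb, Jund, Egr1, Atf3, Ier2, Dusp1 and Zfp36, were followed in 11 mouse small cell lung tumors. They were chosen by symbol, with earlier results of these data known. All 10 were among the 23284 genes of each count table and among the 15237 that passed the low-count filter. Small cell lung cancer is a neuroendocrine carcinoma. The ON DOX group held 7 tumors from animals on doxycycline, the condition in which MYCN is switched on. The OFF DOX group held 4 tumors taken after doxycycline had been out of the feed for 7 days. Both groups carried the same labelled genotype, Rb and p53 alleles with TRE-MYCN, a doxycycline-responsive MYCN transgene, and LSL-RTTA, a transactivator that Cre recombinase must release. The driver of Cre, the strain and the age of the animals are not given in the sources used here, nor is whether each tumor is from its own animal, so every p-value measures only the spread between these tumors. Doxycycline and MYCN were switched together, and their effects cannot be told apart.

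Immediate early genes are transcribed within minutes of a growth factor, stress or calcium signal, without new protein synthesis, mainly through MAP kinases that act on the factors SRF, its TCF partners and CREB. AP-1 is a dimer of a Fos and a Jun protein, or of Jun proteins with each other or with ATF relatives, and binds DNA through a leucine zipper. Egr1 is a zinc finger factor of the same response, Atf3 an ATF family factor induced by stress, and Ier2 a nuclear protein induced early. Dusp1 and Zfp36 end the signal: Dusp1 is a phosphatase of MAP kinases, and Zfp36 (tristetraprolin) speeds decay of mRNAs with AU-rich elements. Bulk RNA cannot tell fewer cells of a type from less RNA per cell.

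The 250 bases upstream of the RefSeq start were read for 8 of the genes, as Egr1 and Ier2 had no window here. The windows were of build GRCm38.p6, matched by symbol, each in the direction of transcription. They are shown for Fos, Junb, Dusp1 and Zfp36, which were all called lower in ON DOX and which hold a motif shown in capitals. Capitals mark TGACG, the core of the CREB/ATF site, TGACGTCA, its full form, CACGTG, the E-box bound by MYC proteins, GCGGGGGCG, a site bound by Egr factors, or the CArG box, the SRF site.
Fos (chr12:85473640-85473889, plus strand): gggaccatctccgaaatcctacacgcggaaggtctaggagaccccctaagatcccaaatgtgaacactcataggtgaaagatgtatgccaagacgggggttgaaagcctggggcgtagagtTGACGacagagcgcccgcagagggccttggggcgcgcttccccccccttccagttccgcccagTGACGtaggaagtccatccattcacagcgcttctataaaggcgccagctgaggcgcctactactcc
Junb (chr8:84978749-84978998, minus strand): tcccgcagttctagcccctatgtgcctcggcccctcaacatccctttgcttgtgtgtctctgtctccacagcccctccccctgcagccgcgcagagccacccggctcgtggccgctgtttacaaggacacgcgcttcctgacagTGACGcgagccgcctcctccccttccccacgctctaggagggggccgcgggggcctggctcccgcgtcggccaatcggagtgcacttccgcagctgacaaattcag
Dusp1 (chr17:26508473-26508722, minus strand): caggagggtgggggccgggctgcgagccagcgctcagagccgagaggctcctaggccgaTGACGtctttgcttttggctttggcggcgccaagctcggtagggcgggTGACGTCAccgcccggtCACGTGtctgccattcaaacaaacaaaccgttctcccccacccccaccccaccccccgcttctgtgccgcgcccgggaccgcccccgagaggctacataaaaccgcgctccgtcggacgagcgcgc
Zfp36 (chr7:28379229-28379478, minus strand): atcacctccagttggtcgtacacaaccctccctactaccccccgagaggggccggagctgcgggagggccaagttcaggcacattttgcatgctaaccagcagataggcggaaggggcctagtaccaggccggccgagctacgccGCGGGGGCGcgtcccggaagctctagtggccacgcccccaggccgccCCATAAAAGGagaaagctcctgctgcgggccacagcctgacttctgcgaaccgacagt
Both strands were searched, except for TATAAA, which was read only in the direction of transcription. TGACGTCA contains TGACG on each strand. TGACG was present in 5 of the 8 windows (Fos, Fosb, Junb, Atf3 and Dusp1), against 17.8% of 32851 RefSeq windows of the same length. TGACGTCA and CACGTG were found in Dusp1 alone, against 1.55% and 6.02% of all windows. The CArG box was found in Zfp36 alone, against 1.47%, and GCGGGGGCG in Fosb and Zfp36, against 2.57%. The AP-1 site TGANTCA was in 0 of the 8, against 6.75%, and the windows of Jun and Jund held none of these motifs. The general promoter elements CCAAT and TATAAA were also searched and are not capitalised. CCAAT was in Jun and Junb, against 33.9% of all windows, and TATAAA in Fos, against 7.59%. A match describes the letters of the window and shows no binding. A missing match says nothing of bases further upstream, and Egr1 and Ier2 were not searched.

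As the check of the labels, Mycn reads were at 36.5 to 171 CPM in ON DOX tumors and at 5.63 to 15.7 CPM in OFF DOX tumors (edgeR log2 fold change 3.06, SE 0.47, adjusted p = 0.00139). CPM is a gene's reads scaled to the size of its library, with TMM factors. The tables held 10324089 to 13123838 gene reads per ON DOX tumor and 8951733 to 12190957 per OFF DOX tumor. All 10 neuroendocrine markers were read in every tumor, with a summed level of 2714 to 4066 CPM in ON DOX and 1779 to 8189 CPM in OFF DOX. Other tissue was unevenly shared out. The 12 markers of alveolar and club epithelium summed to 35.7 to 3458 CPM in ON DOX and to 33650, 76.9, 3073 and 5447 CPM in OFF DOX tumors 1 to 4. Of these 12, Sftpb, Sftpd, Lamp3, Cldn18 and Cyp2f2 were at 0 in at least 1 tumor. OFF DOX tumor 2 had few lung markers but the highest skeletal muscle sum, 495 CPM, against at most 113 CPM in ON DOX.

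Of the 10 genes, 7 fell in ON DOX tumors relative to OFF DOX tumors and 0 rose. The 7 were Egr1, Zfp36, Junb, Fos, Ier2, Jun and Dusp1, and the test was edgeR's quasi-likelihood test at an adjusted p below 0.05 over all tested genes. Over all 15237 genes, 13.4% were called lower and 16% higher. As the 10 were chosen with earlier results of these data known, the shares of all genes are set beside them only as a description. Fosb, Atf3 and Jund were not called. The fitted difference was below 0 for all 10, with a median log2 fold change of -1.01, while 49.9% of all genes lay below 0 and their median was 0.0023. Junb and Ier2 were lower in every ON DOX tumor than in every OFF DOX tumor, a pattern that 5.41% of all genes showed, and the other 8 genes had overlapping ranges. The count of genes called lower varied with the method: 8 of the 10 with DESeq2 (19.3% of all genes), 8 with upper quartile factors (19%), 9 with library totals (22%), 5 with the replicate number as a block (7.56%) and 3 without OFF DOX tumor 4 (8.09%), namely Junb, Egr1 and Zfp36.

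**Figure D1:**
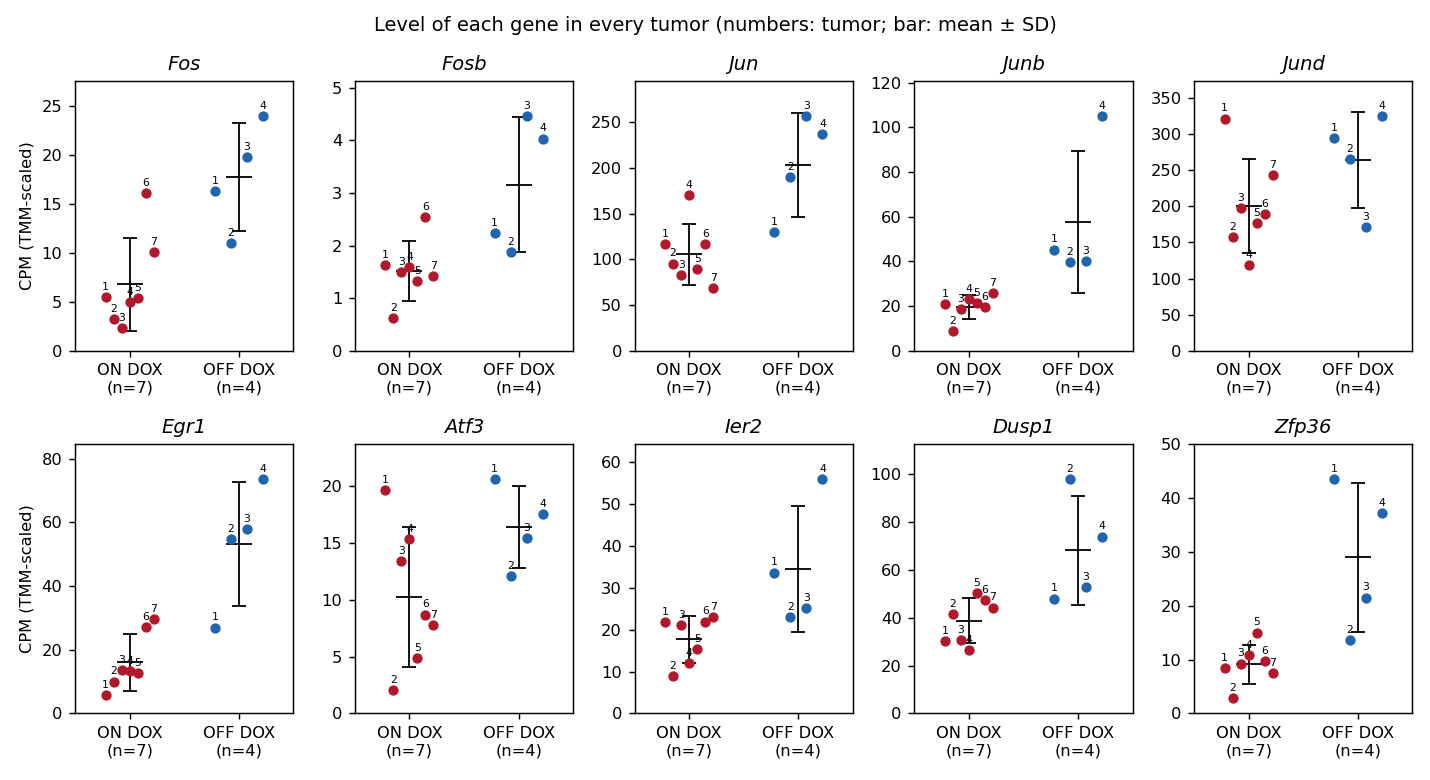
Level of each of the 10 genes in CPM (y axis, from 0) in the 7 ON DOX tumors (red) and the 4 OFF DOX tumors (blue), each point 1 tumor with its number and the bar the mean ± SD. Junb runs from 8.85 to 25.8 CPM in ON DOX and from 39.6 to 105 CPM in OFF DOX, while Jund overlaps widely.

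Among the Fos genes, Fos had a lowest, median and highest level of 2.28, 5.39 and 16.0 CPM in ON DOX, against 16.3, 11, 19.7 and 23.9 CPM in OFF DOX tumors 1 to 4. Of the 7 ON DOX tumors 6 lay below the lowest OFF DOX value, and tumor 6 lay within the OFF DOX range. The mean was 6.76 ± 4.77 CPM in ON DOX and 17.7 ± 5.47 CPM in OFF DOX (SD, n = 7 and 4), a log2 fold change of -1.39 (SE 0.48, edgeR adjusted p = 0.0481). That p lies next to the threshold, and Fos lost its call in 8 of 11 fits that left out 1 tumor, with log2 fold changes between -1.77 and -1.21. Without OFF DOX tumor 4 the adjusted p was 0.134, and without ON DOX tumor 6 it was 0.0134.

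Fosb, a Fos paralog also induced early, was the rarest of the 10. It had 7 to 28 reads per ON DOX tumor and 19 to 66 per OFF DOX tumor. Its levels were 0.62, 1.49 and 2.54 CPM (lowest, median and highest) in ON DOX, against 2.24, 1.88, 4.46 and 4.03 CPM in OFF DOX. Only ON DOX tumor 6 reached the OFF DOX range, which is the tumor that also had the highest Fos of its group. The log2 fold change of -1.05 (SE 0.42, edgeR adjusted p = 0.0795) did not pass, although DESeq2 called it at an adjusted p of 0.0363.

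Among the Jun genes, Junb, which in many settings opposes the growth-promoting activity of Jun, had levels of 8.85, 21.0 and 25.8 CPM (lowest, median and highest) in ON DOX. In OFF DOX it had 45.3, 39.6, 40.2 and 105 CPM. The ranges were apart, with ON DOX tumor 2 far below its group and OFF DOX tumor 4 far above its own. The mean was 19.8 ± 5.34 CPM in ON DOX and 57.5 ± 31.7 CPM in OFF DOX, a log2 fold change of -1.54 (SE 0.32, edgeR adjusted p = 0.00563), and the call held in all 11 fits that left out 1 tumor. Without OFF DOX tumor 4 the log2 fold change was -1.07. Junb overlaps Prdx2 on the opposite strand in the reference annotation, and the strand setting of the counts is not given in the sources used here. Prdx2, a peroxiredoxin, was at 373 to 860 CPM in ON DOX and 266 to 350 CPM in OFF DOX, higher where Junb was lower (edgeR adjusted p = 0.00811). Other genes of the 10 have such overlaps too. Jun, Jund, Atf3 and Zfp36 each overlap 1 gene on the opposite strand, and Dusp1 overlaps 4 genes, 2 of them on the opposite strand.

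Jun, the founding AP-1 subunit, had 68.9, 95.3 and 170.0 CPM (lowest, median and highest) in ON DOX, against 129, 190, 257 and 237 CPM in OFF DOX tumors 1 to 4. ON DOX tumor 4 alone reached into the OFF DOX range. The fitted log2 difference was -0.94 (SE 0.25, edgeR adjusted p = 0.0169), and the adjusted p was 0.0564 without OFF DOX tumor 3 and 0.0535 without OFF DOX tumor 4.

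Jund, the Jun gene known for steady expression and for slowing the growth of fibroblasts, had 119, 189 and 322 CPM in ON DOX, against 295, 266, 171 and 325 CPM in OFF DOX. The ranges overlapped widely, with 5 of 7 ON DOX tumors inside the OFF DOX range. Its log2 fold change of -0.40 (SE 0.26, edgeR adjusted p = 0.261) did not pass, and only scaling by library totals gave a call, at -0.71 with an adjusted p of 0.0436.

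Because the 3 Jun genes did not move alike, their shares of the summed Jun-family level per kilobase of transcript were compared, a quantity that library scaling cannot change. Junb made up 3.79% to 9.26% in ON DOX, with a median of 6.73%, against 10.3%, 9.11%, 10.8% and 17.7% in OFF DOX. Only ON DOX tumor 4 lay above the lowest OFF DOX share. The mean share was 6.74 ± 1.91% in ON DOX and 12.0 ± 3.89% in OFF DOX (two-sided exact permutation p = 0.00606, n = 7 and 4, 0.0364 after Benjamini-Hochberg adjustment over 6 shares). Jund made up 72.2 ± 9.65% in ON DOX and 62.2 ± 9.80% in OFF DOX, and Jun 21.1 ± 8.78% in ON DOX and 25.9 ± 9.53% in OFF DOX, neither past the test (exact permutation p = 0.145 and 0.412). Without ON DOX tumor 4 the Jund difference was 13.4 percentage points (exact permutation p = 0.0143, before adjustment). Without OFF DOX tumor 3 it was 5.96 percentage points (exact permutation p = 0.383). Only the removal of ON DOX tumor 4 brought that p below 0.05. The same shares in the Fos family (Fos, Fosb and Fosl2, a more slowly induced relative; Fosl1 was too rare to test) were 36.5 ± 16.1% in ON DOX and 52.0 ± 8.52% in OFF DOX for Fos (exact permutation p = 0.112). Fosl2 itself made up 58.3 ± 16.4% in ON DOX and 42.8 ± 10.5% in OFF DOX (exact permutation p = 0.124). Without ON DOX tumor 6, the Fos-rich one, these differences were -20.7 and 20.9 percentage points with an exact permutation p of 0.00952 each, before adjustment. Without OFF DOX tumor 3 they were -11.2 and 10.3 percentage points (exact permutation p = 0.225 and 0.35). Only the removal of ON DOX tumor 6 brought either p below 0.05. These shares were chosen after the levels were seen.

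**Figure D2:**
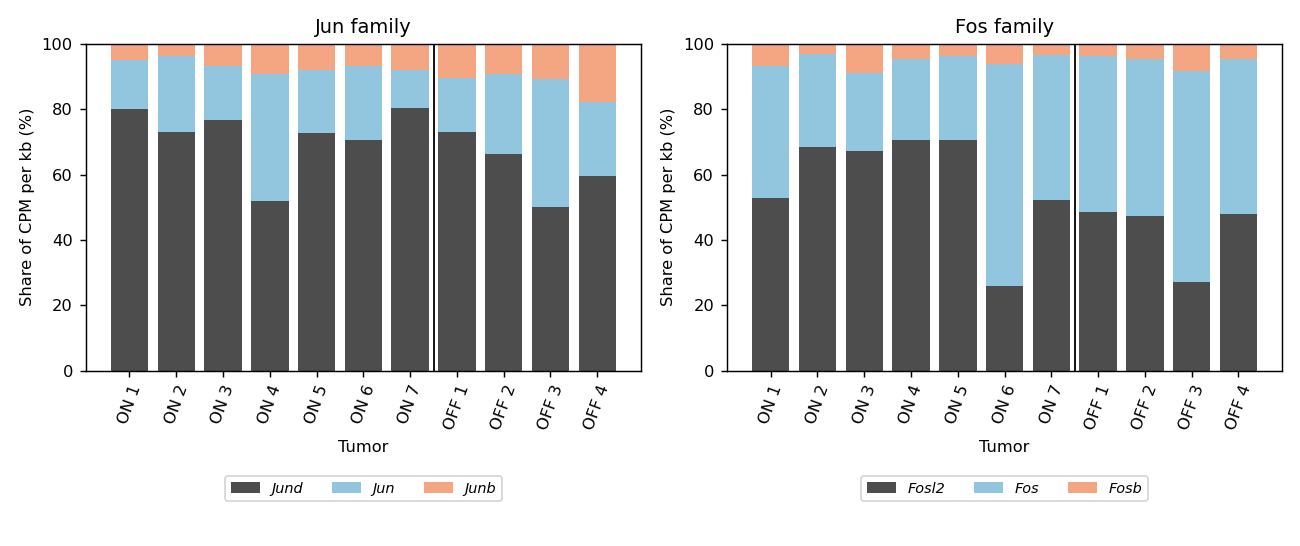
Share of each gene in the summed CPM per kilobase of its family (y axis, percent) in each tumor, ON DOX tumors left of the line and OFF DOX tumors right of it, with 1 stacked bar a tumor. The Junb segment is between 3.79% and 9.26% in ON DOX and between 9.11% and 17.7% in OFF DOX, and Fos takes 68.1% in ON DOX tumor 6.

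Egr1 had the largest fitted difference of the 10. Its levels were 5.69, 13.4 and 29.6 CPM (lowest, median and highest) in ON DOX, against 27.0, 54.7, 57.8 and 73.6 CPM in OFF DOX tumors 1 to 4. OFF DOX tumor 1, the one with the highest sums of lung markers, lay just below ON DOX tumors 6 and 7, and the other 3 lay above every ON DOX tumor. The mean was 16.0 ± 8.91 CPM in ON DOX and 53.3 ± 19.4 CPM in OFF DOX, a log2 fold change of -1.73 (SE 0.41, edgeR adjusted p = 0.0105). The call held in all 11 fits that left out 1 tumor, between -1.95 and -1.53.

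Atf3 had 2.04, 8.70 and 19.6 CPM (lowest, median and highest) in ON DOX, against 20.7, 12.1, 15.5 and 17.5 CPM in OFF DOX. ON DOX tumors 1, 3 and 4 lay within the OFF DOX range, and the highest ON DOX tumor had 9.64 times the level of the lowest. The log2 fold change of -0.68 (SE 0.49, edgeR adjusted p = 0.31) did not pass in any of the 25 alternatives.

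Ier2 had 8.85, 21.0 and 22.9 CPM in ON DOX (lowest, median and highest), against 33.6, 23.1, 25.1 and 56.0 CPM in OFF DOX. The groups did not overlap, but the highest ON DOX tumor and OFF DOX tumor 2 were 22.9 and 23.1 CPM, so that the gap was narrow. The fitted log2 difference was -0.96 (SE 0.32, edgeR adjusted p = 0.0402), and 6 of 11 fits without 1 tumor kept the call. The other 5 lost it, with the highest adjusted p, 0.181, without OFF DOX tumor 4.

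Of the genes that end the response, Dusp1 had 26.5, 41.4 and 50.4 CPM (lowest, median and highest) in ON DOX, against 47.9, 98.0, 52.9 and 73.8 CPM in OFF DOX. Only ON DOX tumor 5 passed the lowest OFF DOX tumor. The fitted log2 difference was -0.82 (SE 0.24, edgeR adjusted p = 0.0262), with an adjusted p of 0.0796 without OFF DOX tumor 2 and 0.0689 without OFF DOX tumor 4.

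Zfp36 had 2.83, 9.27 and 15 CPM (lowest, median and highest) in ON DOX, against 43.5, 13.6, 21.5 and 37.2 CPM in OFF DOX. OFF DOX tumor 2, with few lung markers, was the lowest of its group, and tumor 1, with the most, was the highest. The mean was 9.09 ± 3.66 CPM in ON DOX and 29.0 ± 13.8 CPM in OFF DOX, a log2 fold change of -1.67 (SE 0.41, edgeR adjusted p = 0.0116). All 11 fits without 1 tumor called it.

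Per kilobase of transcript the order of the 10 genes was much the same in both groups. Jund led, at 120.4 ± 39.2 CPM per kb in ON DOX and 158 ± 40.0 in OFF DOX, above Jun at 33.1 ± 10.4 in ON DOX and 63.7 ± 17.8 in OFF DOX in every tumor. Dusp1 followed, with 19.5 ± 4.74 CPM per kb in ON DOX and 34.3 ± 11.5 in OFF DOX. Junb and Ier2 were neighbours with a clear order in OFF DOX alone. There Junb was above Ier2 in all 4 tumors, at mean levels of 31.8 and 22.6 CPM per kb. In ON DOX, Ier2 was above Junb in 5 of 7 tumors, at close mean levels of 11.6 and 10.9 CPM per kb. Egr1 and Atf3 in ON DOX (4 of 7 tumors with Egr1 higher), Zfp36 and Fos in either group (4 of 7 and 2 of 4), and in OFF DOX also Dusp1 and Junb, Ier2 and Egr1, and Fos and Atf3 (2 of 4 each) could not be ordered by their levels. Fosb was last, at 0.40 ± 0.15 CPM per kb in ON DOX and 0.83 ± 0.34 in OFF DOX.

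The tumors differed in how many of the 10 genes they held high. OFF DOX tumor 4 was the highest of all 11 tumors for 5 genes and among the highest 4 for all 10. OFF DOX tumors 1 and 3 were the highest for 2 genes each and OFF DOX tumor 2 for 1 gene, Dusp1. Within OFF DOX, tumor 2 was the lowest for 6 genes. ON DOX tumor 2 was the lowest of all 11 tumors for 5 genes (Fosb, Junb, Atf3, Ier2 and Zfp36). No ON DOX tumor was the highest of all for any gene.

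**Figure D3:**
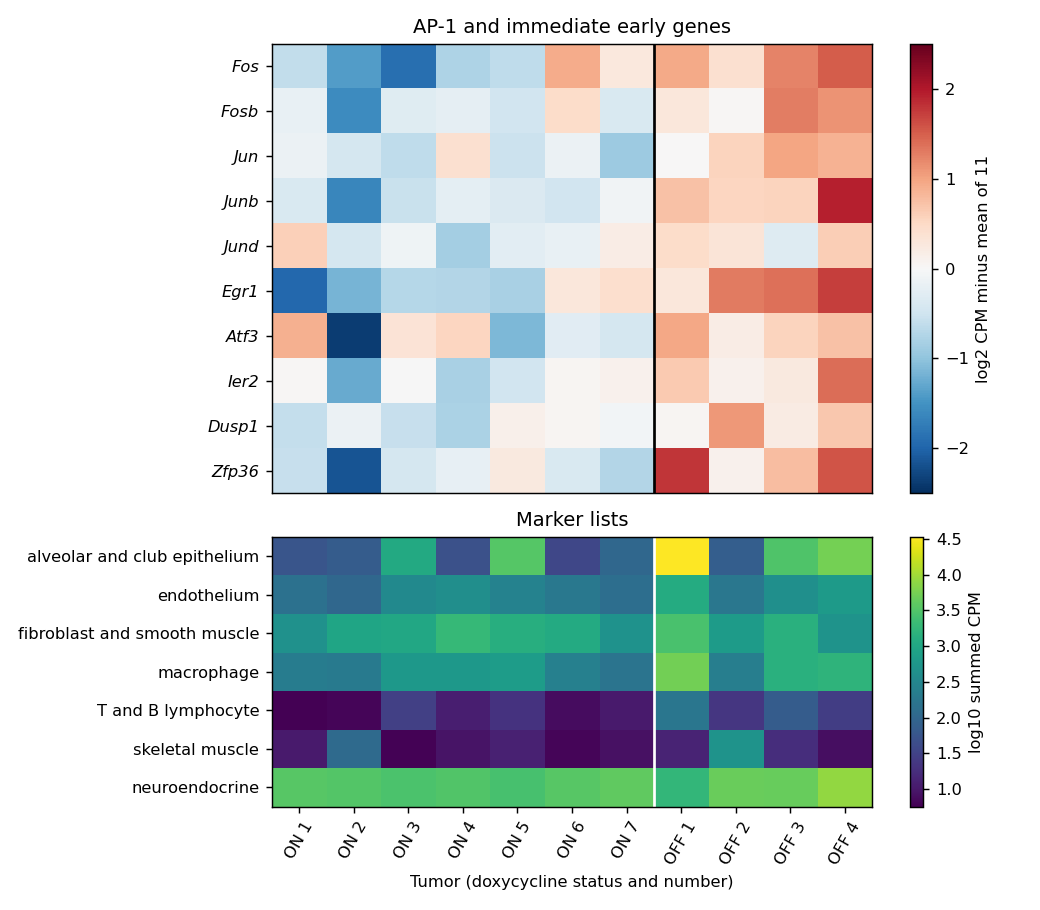
Above, log2 CPM of each gene minus its mean over the 11 tumors (color, red higher), and below, log10 of the summed CPM of each marker list, in the 7 ON DOX tumors (left) and 4 OFF DOX tumors (right). OFF DOX tumor 4 is red for all 10 genes, ON DOX tumor 2 is blue for all 10, and OFF DOX tumor 2 pairs low lung markers with high skeletal muscle markers.

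Within the groups the 10 genes did not move as 1 block. After the group means were subtracted from log2 CPM, Junb, Fosb and Ier2 followed the mean of the other 9 genes most closely over the 11 tumors (correlation 0.84, 0.80 and 0.80), whereas Jun and Dusp1 did not (0.09 and -0.08). The genes of a tumor share its library and its tissue makeup, which varied between tumors, so this is a description. Junb and Ier2 were the closest pair of 45 (0.80), and Atf3 and Dusp1 the most opposed (-0.60). Of 12523 other genes at a mean of at least 5 CPM, Ccdc85a (0.92), Adamtsl2 (0.90), Bmp7 (0.89), Dlec1 (0.88), Csrnp1 (0.88), Rtn4rl1 (0.87), Lrrn2 (0.86), Ddit4 (0.85) and Ehhadh (0.84) were among those that followed the mean profile of the 10 most closely. Of these, Csrnp1 is on the list of immediate early genes. Picking the highest of 12523 correlations over 11 tumors favors high values, so these correlations say little of any single gene. ON DOX tumor 2 lay furthest from its group in the mean profile, at -0.80, and weighs most on them.

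Markers of other cell types differed between the groups to unlike degrees, and 13.4% of all genes were called lower in ON DOX. Among the 10 neuroendocrine markers 1 was lower and 1 higher. T and B lymphocyte markers summed to 5.69 to 29.9 CPM in ON DOX and to 22.5 to 172 CPM in OFF DOX, with 6 of 8 tested markers called lower in ON DOX. For endothelium the sums were 104 to 415 CPM in ON DOX and 175 to 1179 CPM in OFF DOX, with 5 of 10 lower. Macrophage markers summed to 163 to 692 CPM in ON DOX and to 236 to 5344 CPM in OFF DOX, with 3 of 8 lower. Fibroblast and smooth muscle markers summed to 458 to 1901 CPM in ON DOX and to 497 to 2780 CPM in OFF DOX, with 1 of 10 lower. Their median sums were much alike, at 1045 CPM in ON DOX and 1035 CPM in OFF DOX. Of the tested markers, 1 of 12 of lung epithelium, 1 of 3 of neutrophils and 0 of 5 of skeletal muscle were lower. Their part in the differences of the 10 genes was not tested; the edgeR fit was repeated with the mean log2 CPM of a marker list as a covariate. Egr1 and Dusp1 kept their call with each of 4 such scores, none of which was of skeletal muscle. Egr1 had a log2 fold change of -1.88 with the lung epithelium score, -1.93 with the endothelium score, -1.80 with the fibroblast score and -2.13 with the immune score, at adjusted p-values of 0.0124 to 0.0383. Dusp1 had log2 fold changes of -0.93, -0.995, -0.88 and -1.12 in the same order, at adjusted p-values of 0.0224 to 0.0482. Its highest level, 98.0 CPM, was in OFF DOX tumor 2, which also had the highest skeletal muscle sum, 495 CPM. Without that tumor and without a score, the log2 fold change of Dusp1 was -0.58 (edgeR adjusted p = 0.0796).

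The other 5 called genes depended on the score. Zfp36 moved most: its log2 fold change was -0.94 with the lung epithelium score, -0.89 with the endothelium score and -0.83 with the immune score, at adjusted p-values of 0.164, 0.0949 and 0.235. Junb kept its call with the endothelium, fibroblast and immune scores and had an adjusted p of 0.06 with the lung epithelium score (log2 fold change -1.30). Jun lost its call with the immune score alone (adjusted p = 0.0725, log2 fold change -1.05). Ier2 kept its call with the fibroblast score alone, although with the immune score its log2 fold change was -0.92 (SE 0.45), close to the -0.96 (SE 0.32) without a score. With the endothelium and lung epithelium scores it was -0.76 and -0.69. Fos kept its call with none (adjusted p 0.0704 to 0.208), although the fitted difference of Fos was between -1.22 and -1.59. In all, 3 of the 10 were called with the lung epithelium score, 4 with the endothelium score, 6 with the fibroblast score and 3 with the immune score, against 3.76%, 5.59%, 10.3% and 3.68% of all genes called lower in those fits.

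**Figure D4:**
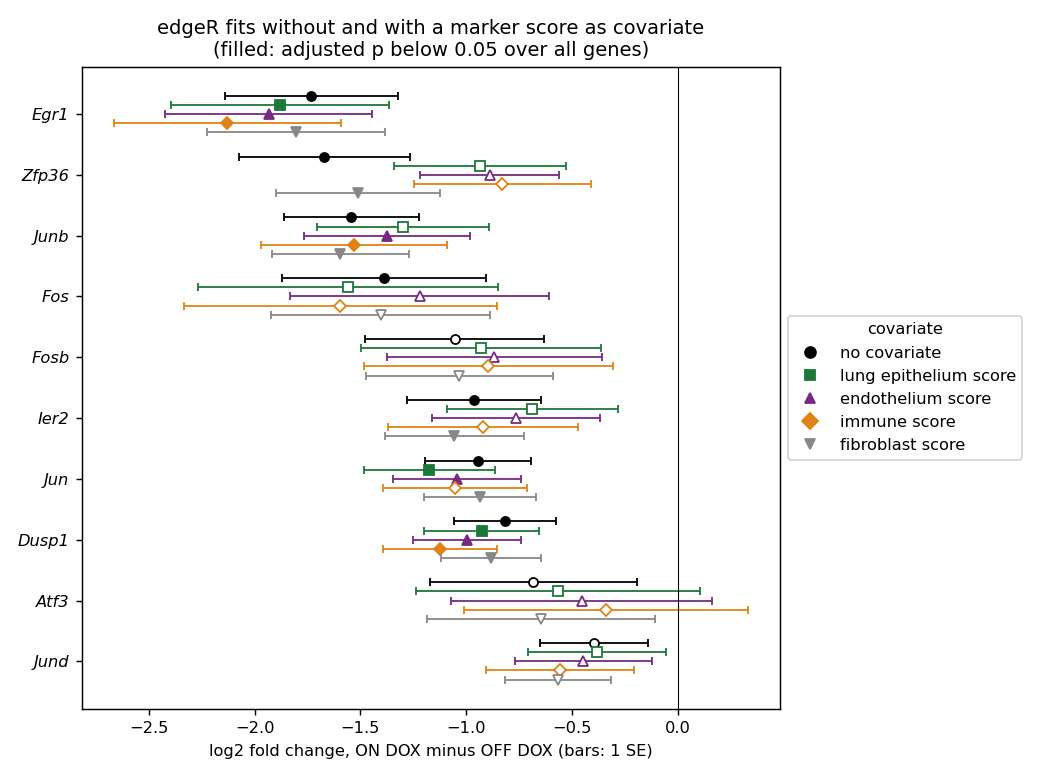
edgeR log2 fold change, ON DOX minus OFF DOX, of each gene (x axis; bars 1 SE) without a covariate and with 1 of 4 marker scores as a covariate, filled where the adjusted p is below 0.05. Egr1 and Dusp1 stay filled throughout, and Zfp36 goes to -0.94, -0.89 and -0.83 with the lung epithelium, endothelium and immune scores.

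The tumors were also split by their level of Sftpc, a marker of alveolar type II cells. In the 5 ON DOX tumors with Sftpc below 100 CPM, the only OFF DOX tumor of that kind, tumor 2, lay above all 5 for Jun, Junb, Egr1, Ier2, Dusp1 and Zfp36, that is for 6 of the 10 genes, a position that 24.6% of all genes held. That OFF DOX tumor held other tissue, with a skeletal muscle sum of 495 CPM, against 6.43 to 113 CPM in those 5 ON DOX tumors. Egr1 was at 5.69 to 29.6 CPM in those ON DOX tumors, against 54.7 CPM in OFF DOX tumor 2, and Dusp1 at 26.5 to 47.5 CPM, against 98.0 CPM. Fos was at 3.19 to 16.0 CPM there, against 11 CPM, within the ON DOX range. Above that value lung content was not alike. Sftpc was at 450 and 1313 CPM in ON DOX tumors 3 and 5, against 9505, 1273 and 1227 CPM in OFF DOX tumors 1, 3 and 4. The macrophage sum was 585 and 692 CPM in those ON DOX tumors, against 5344, 1399 and 1627 CPM in those OFF DOX tumors. All 3 OFF DOX tumors lay above both ON DOX tumors for 8 of the 10 genes, a position that 21.6% of all genes held. Jund and Dusp1 were the exceptions. edgeR, which takes the lone OFF DOX tumor to vary like the ON DOX tumors, called 0 of the 10 and 0 of all genes in either subset. At an unadjusted p below 0.05, 1 of the 10 and 14.5% of all genes passed among the tumors with little lung, and 5 of the 10 and 24.8% of all genes among the others.

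The wider response was read in 7 lists of related genes, 132 in all beside the 10, of which 126 were tested. The lists too were chosen with earlier results of these data known, so their counts are a description. Across them 19 were lower and 12 higher in ON DOX, which is 15.1% and 9.52% of those tested, against 13.4% and 16% of all genes. Of 11 tested AP-1 subunits outside the 10, 2 fell, among them Batf, and Atf2 rose, and the median log2 fold change was -0.62. The 2 that fell are 18.2% of the list. Batf, a factor of lymphocytes and dendritic cells, was at 0.56 ± 0.41 CPM in ON DOX and 2.31 ± 1.68 CPM in OFF DOX. Its log2 fold change of -2.01 (edgeR adjusted p = 0.0428) was -0.70, -0.48 and -0.21 with the lung epithelium, endothelium and immune scores, where the adjusted p was 0.638, 0.622 and 0.881. Atf2, a partner of Jun, was at 160 ± 37.4 CPM in ON DOX and 96.4 ± 12.8 CPM in OFF DOX (edgeR log2 fold change 0.73, adjusted p = 0.0182). With the same 3 scores its log2 fold change was 0.47, 0.55 and 0.45, at adjusted p-values of 0.162, 0.117 and 0.262.

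Of 40 tested immediate early genes outside the 10, 7 fell and 1 rose, or 17.5% and 2.5%, against 13.4% and 16% of all genes. A fitted difference below 0 was found for 35 of them, against 49.9% of all genes (median log2 fold change -0.73). Myc, itself an early gene, was at 2.26 to 5.78 CPM in ON DOX and 7.33 to 11.4 CPM in OFF DOX, with no overlap (log2 fold change -1.51, edgeR adjusted p = 0.00842). Arc, a synaptic immediate early gene and an Egr target, was at 3.20 to 13.7 CPM in ON DOX, against 8.32, 34.5, 39.6 and 27.5 CPM in OFF DOX tumors 1 to 4. As with Egr1, OFF DOX tumor 1 lay inside the ON DOX range and the other 3 above it (log2 fold change -1.99, edgeR adjusted p = 0.0112). Ier5 was at 23.0 to 38.1 CPM in ON DOX and 38.3 to 68.7 CPM in OFF DOX (log2 fold change -0.83, edgeR adjusted p = 0.0123). The gene that rose was Homer1, a postsynaptic scaffold gene, at 20.8 to 33.2 CPM in ON DOX and 7.32 to 13.4 CPM in OFF DOX. Nr4a1, an orphan nuclear receptor and early gene named after its value was seen, was at 18.3 ± 5.10 CPM in ON DOX and 19.7 ± 7.84 CPM in OFF DOX and was not called (adjusted p = 0.823).

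Of 16 MAP kinase feedback genes, 2 fell and 0 rose, and 12.5% lower is near the 13.4% of all genes. Dusp6, a cytoplasmic phosphatase of MAP kinases, was at 5.84, 19.5 and 24.2 CPM (lowest, median and highest) in ON DOX, against 73.8, 30.3, 58.3 and 108 CPM in OFF DOX. The groups were apart, with OFF DOX tumor 2 nearest to ON DOX (log2 fold change -2.01, SE 0.41, edgeR adjusted p = 0.00488). Dusp5, its nuclear relative, was at 0.35 to 1.85 CPM in ON DOX and 2.64 to 4.06 CPM in OFF DOX, also apart (log2 fold change -1.75, edgeR adjusted p = 0.0145).

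Of 28 MAP kinases and SRF, TCF and CREB factors, 1 fell and 4 rose. These are 3.57% and 14.3% of the list, against 13.4% and 16% of all genes. Elk3, a TCF factor that is also expressed in endothelium, was the one that fell, at 5.52 to 16.9 CPM in ON DOX and 22.6 to 62.3 CPM in OFF DOX. Mapk8, the kinase JNK1 that phosphorylates Jun, was at 139 ± 34.9 CPM in ON DOX and 41.4 ± 11.2 CPM in OFF DOX (log2 fold change 1.75, edgeR adjusted p = 9.9e-04). Kinase protein and its phosphorylation were not measured.

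Of 8 genes around Zfp36 and Egr1, 2 fell and 4 rose, or 25% and 50%, against 13.4% and 16% of all genes. Nab2, a corepressor of Egr factors and an Egr target, was at 2.30, 5.03 and 16.0 CPM (lowest, median and highest) in ON DOX, against 23.1, 35.1, 28.0 and 38.0 CPM in OFF DOX. The groups did not overlap, and ON DOX tumor 7, which had the highest Egr1 of its group, also had the highest Nab2 of its group (log2 fold change -2.17, SE 0.43, edgeR adjusted p = 0.00452). Zfp36l1, a paralog of Zfp36, was at 6.64 to 38.5 CPM in ON DOX, against 257, 9.71, 45.5 and 67.6 CPM in OFF DOX, highest in the tumor with the most lung markers. Its log2 fold change of -2.28 (edgeR adjusted p = 0.0321) was -0.18 with the lung epithelium score and turned to 0.07 with the endothelium score and 0.26 with the immune score, at adjusted p-values of 0.77 to 0.897. Elavl1, the factor HuR that protects AU-rich mRNAs, was at 277 ± 106 CPM in ON DOX and 124 ± 13.3 CPM in OFF DOX. Hnrnpd, which binds the same elements, was at 487 CPM on average in ON DOX and 208 CPM in OFF DOX.

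Of 16 tested AP-1 target genes, 3 fell, or 18.8%, and 0 rose, against 13.4% and 16% of all genes (median log2 fold change -0.94). Cdkn1a, the cell-cycle inhibitor p21 and also a p53 target, was at 34.7 ± 17.5 CPM in ON DOX and 121 ± 31.5 CPM in OFF DOX, and Tgfb1 and Lmna were the other two. Of 8 inducible heat shock genes, 2 fell (Hspb1 and Bag3) and 2 rose (Hspe1 and Hsp90aa1), or 25% each way, beside the same shares of all genes. Hspa1a and Hspa1b, the stress-induced Hsp70 genes, also named after their values were seen, were not called, with log2 fold changes of -0.80 and -0.96 and adjusted p-values of 0.326 and 0.27. Of 25 named genes of the lists, 11 were called in all 4 fits with a marker score, among them Nab2, Arc, Cdkn1a, Homer1 and Mapk8. These 25 were picked as called genes with the smallest p without a score, which favors calls in the other fits. The share of all genes called in all 4 fits was not computed, so the count cannot be set against it. Dusp6 had adjusted p-values of 0.0709 and 0.09 with the lung epithelium and immune scores, where its log2 fold changes were -1.36 and -1.32. Myc lost its call with the same 2 scores, at adjusted p-values of 0.0588 and 0.0857 and log2 fold changes of -1.20 and -1.14. Elk3 did too, at adjusted p-values of 0.0851 and 0.148 and log2 fold changes of -1.08 and -0.78. Ier5 lost its call with the immune score alone (adjusted p = 0.081, log2 fold change -0.78), as did Dusp5 (adjusted p = 0.0526, log2 fold change -1.89). Elavl1 had adjusted p-values of 0.0787 and 0.0622 with the lung epithelium and immune scores, at log2 fold changes of 0.97 and 1.17. Tgfb1 and Hspb1 lost their calls with the lung epithelium, endothelium and immune scores. There the log2 fold change of Tgfb1 was -0.63, -0.44 and -0.31, and that of Hspb1 was -0.82, -0.68 and -0.52. Bag3 was called with none of the 4 scores (adjusted p 0.0508 to 0.214).

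**Figure D5:**
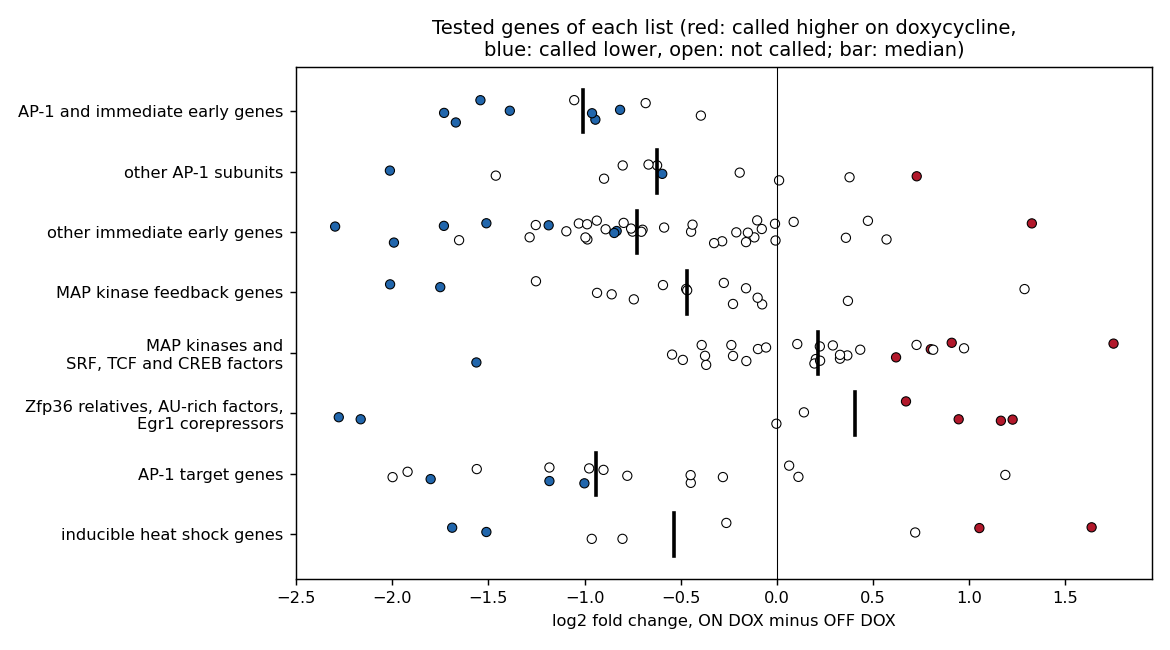
edgeR log2 fold change, ON DOX minus OFF DOX (x axis), of each tested gene of the 10 and of the 7 related lists (rows), red where called higher in ON DOX, blue where called lower and open where not called, with a bar at the list's median. The medians run from -1.01 for the 10 genes to 0.41 for the Zfp36 and Egr1 partners.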

How the data were processed

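Poly(A) RNA of 11 tumors was sequenced, 7 ON DOX and 4 OFF DOX, grouped by sample title. Reads were handled with TopHat2 2.0.8b, HTSeq 0.6.1 and bcl2fastq 1.8.4 on build mm9, per the submitters' processing notes; annotation and strand setting are not given in the sources used here. The authors deposited raw read counts per gene symbol, with no normalization. Summary rows that name no gene stayed out. Reads without a gene were 14.8% to 21.5% of a tumor's records. Reads aligned to several places were 13.8% to 20.9% in ON DOX and 9.15% to 11.9% in OFF DOX, with no overlap. The TMM factors did not overlap either, at 0.83 to 1.01 in ON DOX and 1.09 to 1.22 in OFF DOX. The part of these library differences in the results was not tested. The counts were fitted in R 4.3.3 with edgeR 4.0.16: filterByExpr (minimum count 10, total 15), TMM factors and the robust quasi-likelihood test over 15237 genes, Benjamini-Hochberg adjusted, called below 0.05. The SE is the log2 fold change over the square root of F. The test was checked on simulated counts. The biological coefficient of variation was 53.7%, so the spread between tumors, not depth, set the precision. Lengths came from GENCODE M21 transcripts paired with RefSeq, and Errfi1 is in 2 lists. The smallest p of the exact permutation test is 0.00303. Named genes were the 10, Mycn, up to 3 called genes per list and direction with the smallest p, and the 10 most alike in pattern; a few of these are not reported here, and others are said to be chosen after their values were seen or are cell type markers. Members and lists were chosen with earlier results of these data known. Alternatives were RLE, upper quartile and total-count scaling, DESeq2 1.42.0, limma 3.58.1 voom, 2 other filters, a replicate block, 4 marker scores, 2 subsets by Sftpc and each tumor left out. Correlations of the deviations of same-numbered tumors were mixed (-0.16, 0.46, -0.076 and 0.26). OFF DOX tumors 2 and 4 were closest to the ON DOX tumor of their own number. These values cannot settle whether the numbers pair the samples, and the main fit treated them as unpaired. No libraries of a group agreed within sampling noise.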

Additional observations from a re-analysis of the deposited data

Results flagged for a closer look

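In 7 of 32 groups of values examined, 1 tumor stood apart from the rest of its group by Dixon's test at the 95% level; chance gives about 1 in 20. Junb was at 8.85 CPM in ON DOX tumor 2, where the next tumor had 18.6 CPM, and at 105 CPM in OFF DOX tumor 4, where the next had 45.3 CPM. Jun made up 38.8% of the Jun family in ON DOX tumor 4, next to 23.1%, and Jund 52.0% there, next to 70.5%. Fos made up 64.8% of the Fos family in OFF DOX tumor 3, next to 48.1%, and Fosl2 27.1% there, next to 47.3%. Fosl2 made up 25.9% in ON DOX tumor 6, next to 52.2%. Shares within a family add to the whole, so flags of the same tumor are not independent.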

How the results depend on the processing

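All fitted differences of the 10 genes stayed below 0 in each alternative in which the gene was tested; of their values, 200 kept their side of the threshold, 45 lost a call and 4 gained one (Fosb with DESeq2, library totals and upper quartile factors, Jund with library totals). The median log2 fold change over all genes shifted by -0.21 under upper quartile factors and by -0.31 under library totals. Of the 10, 3 were called lower with the lung epithelium score, 4 with the endothelium score, 3 with the immune score and 0 in either Sftpc subset; the cause was not tested. All genes lower and higher in ON DOX, 2038 and 2437 in the main comparison, were 573 and 1235, 852 and 1485, and 561 and 1033 with these scores, 0 and 0 in the subsets, and 3347 and 1317 with library totals. Related genes lower, 19 of 126, were 30 with DESeq2, 37 with library totals, 31 with upper quartile factors, 7, 12 and 6 with the lung, endothelium and immune scores (7 higher, against 12, with the lung and immune scores), and 0 and 0 in the subsets. Leaving out 1 tumor gave 3 to 7 of the 10 lower and 0 higher, 1015 to 2438 genes lower and 1674 to 2955 higher, and 11 to 24 related genes lower and 10 to 14 higher; the lowest count of the 10 was without OFF DOX tumor 4. With the replicate number as a block, 5 of the 10 and 1152 genes were lower, and Jun and Ier2 had adjusted p-values of 0.0821 and 0.0837 at log2 fold changes of -0.81 and -1.11; the correlations of same-numbered tumors were -0.16, 0.46, -0.076 and 0.26. Differences in family share, with 1 tumor left out, ran from -6.23 to -3.35 percentage points for Junb and from -0.67 to 0.91 for Fosb.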
